A study of Mus musculus with 6 samples.

Results

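The collagen chains of tumors grown in mouse lungs with and without bleomycin injury are described here. They were taken as every gene whose row in the deposited tables was marked protein-coding and whose symbol had the form of a collagen chain, such as Col1a1 or Col18a1, which gave 44 genes of the 31130 listed. By class, 11 chains were fibrillar, 6 belonged to type IV of the basement membrane, 9 were FACIT chains (fibril-associated collagens with interrupted helices), 6 belonged to type VI and 12 to other types. The rule used no measured value.
Female C57BL/6 mice, wild type and 6 to 8 weeks old, were injected with LLC cells (the Lewis lung carcinoma line of this mouse strain, carrying eGFP) in a basement membrane extract through the chest wall into the left lung on day 14, and tumor tissue was taken on day 21. The mice of the IP+LC group (interstitial pneumonia and lung cancer, 3 libraries) had been given bleomycin, an antibiotic whose damage to the lung ends in fibrosis, at 2.0 mg/kg body weight into the oropharynx at the start. The mice of the LC group (lung cancer alone, 3 libraries) received no bleomycin, and the scheme of the study shows saline in its place. Both groups therefore carried the injected extract, and these libraries came from 1 tumor line. RNA was counted as unique molecular identifiers (UMIs), 1 per captured transcript 3′ end, so that a level in CPM (counts in 1000000) is a share of molecules and does not scale with transcript length. Each library was 1 tumor tissue sample of the model, and the libraries held 592733 UMIs in LC replicate 1 and from 1336919 to 1631066 in the other 5. LC replicate 1 stood apart, and the spread between replicates was 33.2% of a gene's level in the LC group, 13.7% without that library and 10.9% in the IP+LC group, so the calls on chains that it decides are given with and without it. Although the labels name the cell type as lung cancer cells, genes of the normal lung were abundant: Sftpc, a surfactant protein gene of type 2 alveolar cells, stood at 23958 to 30648 CPM in the LC and at 4339 to 8024 CPM in the IP+LC tumors. In bulk tissue, fewer cells of a type and less RNA per cell cannot be told apart.
Collagen chains wind around each other as trimers, which are secreted, trimmed at their ends and crosslinked. Fibrillar collagens of types I, III and V form the cables that give lung and scar their tensile strength, while type IV collagen forms the sheet under epithelium and endothelium. FACIT and type VI collagens link fibrils to each other and to cells, and the remaining types include membrane-spanning collagens, network formers and the proteoglycan-bearing types XV and XVIII. In fibrosis, fibroblasts and related cells are the best known source of the fibrillar chains.
The 250 bases before the RefSeq start (GRCm38.p6) are shown for the 3 chains with the largest rises and the 2 with the largest falls in the comparison that follows, among the chains whose window held no annotated exon. Each is given 5′ to 3′ along the strand of its gene. Capitals mark the letters CCAAT of the CCAAT box, which read ATTGG on the opposite strand. They also mark GGGCGG of the GC box (CCGCCC on the opposite strand) and TATAAA of the TATA box (TTTATA on the opposite strand). They cover chr9:20815068-20815317 on the minus strand for Col5a3, chr16:57754738-57754987 on the minus strand for Col8a1, chr2:27886175-27886424 on the plus strand for Col5a1, chr10:61979109-61979358 on the minus strand for Col13a1 and chr11:51289670-51289919 on the plus strand for Col23a1.
Col5a3: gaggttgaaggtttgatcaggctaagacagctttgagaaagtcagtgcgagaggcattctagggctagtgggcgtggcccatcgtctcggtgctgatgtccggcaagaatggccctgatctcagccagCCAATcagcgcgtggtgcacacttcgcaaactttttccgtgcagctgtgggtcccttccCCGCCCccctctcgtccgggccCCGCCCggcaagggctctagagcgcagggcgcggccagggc
Col8a1: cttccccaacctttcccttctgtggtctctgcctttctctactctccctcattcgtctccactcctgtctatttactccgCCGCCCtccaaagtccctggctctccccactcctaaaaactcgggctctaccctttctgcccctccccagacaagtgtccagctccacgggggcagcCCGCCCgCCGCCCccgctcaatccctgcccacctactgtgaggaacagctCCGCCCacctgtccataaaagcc
Col5a1: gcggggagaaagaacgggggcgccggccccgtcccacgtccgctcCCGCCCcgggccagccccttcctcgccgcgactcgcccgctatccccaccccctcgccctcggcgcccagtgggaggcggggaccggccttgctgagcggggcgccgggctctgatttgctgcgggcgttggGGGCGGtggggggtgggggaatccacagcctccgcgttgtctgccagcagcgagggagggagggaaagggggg
Col13a1: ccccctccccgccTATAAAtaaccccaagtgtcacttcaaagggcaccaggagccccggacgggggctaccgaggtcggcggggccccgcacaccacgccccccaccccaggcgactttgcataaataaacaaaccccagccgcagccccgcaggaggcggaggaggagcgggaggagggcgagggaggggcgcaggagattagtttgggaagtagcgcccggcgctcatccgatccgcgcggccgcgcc
Col23a1: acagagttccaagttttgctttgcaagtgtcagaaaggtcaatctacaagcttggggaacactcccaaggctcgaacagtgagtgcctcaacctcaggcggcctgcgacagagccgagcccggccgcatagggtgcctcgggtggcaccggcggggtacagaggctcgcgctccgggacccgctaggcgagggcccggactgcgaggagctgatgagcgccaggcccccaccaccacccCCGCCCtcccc
An entry was found for 35 of the 44 chains and not for Col1a1, Col2a1, Col4a3, Col5a2, Col9a3, Col12a1, Col14a1, Col22a1 and Col26a1. The letters GGGCGG stood in the window of 5 of the 5 matched chains that rose (Col1a2, Col5a1, Col5a3, Col7a1 and Col8a1), of 3 of the 6 that fell and of 4 of the 8 tested chains that were not called. Over all 32851 windows the share was 32.7%, counted per window, while the other shares given here count each gene once. Among tested genes with an entry the share was 65.4% for those called higher and 60.4% for those called lower, so most tested genes held these letters. CCAAT stood in 3 of the 5, 1 of the 6 and 4 of the 8, against 33.8% of all windows and 41.8% and 40.8% of the tested genes called higher and lower. TATAAA stood in 0, 1 and 1 of them, against 12.4% of all windows and 8.71% and 10.0% of the tested genes called higher and lower.

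A larger share of UMIs lay on collagen chains in the IP+LC than in the LC tumors, and a larger part of these UMIs was fibrillar. Collagen chains took 0.224%, 0.198% and 0.203% of the UMIs in LC replicates 1, 2 and 3, and 0.295%, 0.306% and 0.299% in the IP+LC replicates. The group means were 0.208% ± 0.0139 and 0.3% ± 0.00584 (SD, n = 3), a ratio of 1.44, and the highest LC tumor lay below the lowest IP+LC tumor. The exact 95% Clopper-Pearson interval, which covers counting error only, was 0.212% to 0.236% in LC replicate 1 and 0.286% to 0.304% in IP+LC replicate 1. Fibrillar chains made up 45.2%, 44.0% and 39.4% of the collagen UMIs in the LC tumors and 58.5%, 59.1% and 53.8% in the IP+LC tumors. The share of type VI chains was 13.1%, 10.9% and 10.9% against 5.07%, 5.204% and 6.46%, and neither class overlapped between the groups. For the basement membrane class the shares were 27.5%, 31.9% and 37.7% against 25.01%, 23.04% and 28.1%, which overlapped. No test was made on these summed shares. They are shares of all UMIs of a library, without the TMM scaling behind the CPM given below. The TMM factors were 0.905 to 0.994 in the LC and 1.04 to 1.07 in the IP+LC tumors, so the groups differ by less on the scaled levels.

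**Figure D1:**
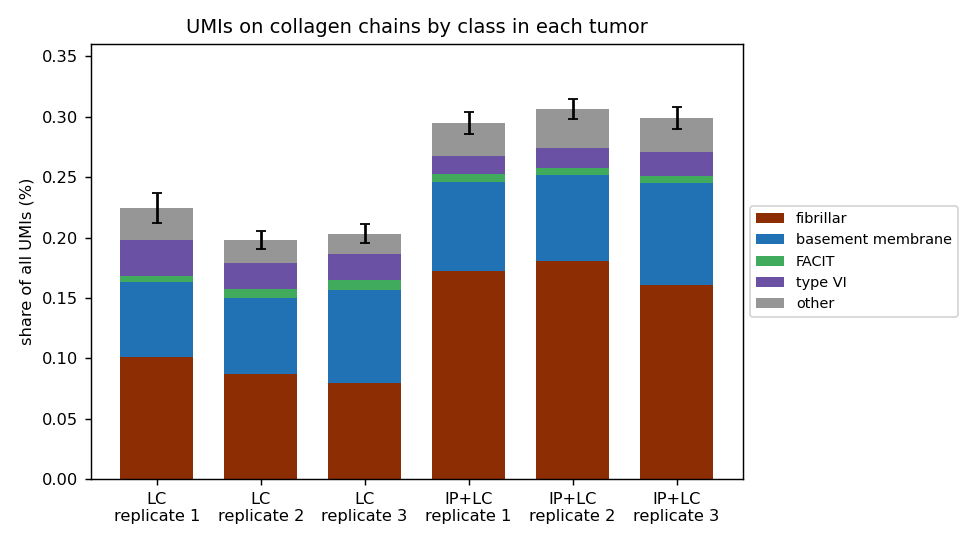
Stacked bars give the share of all UMIs (%) on collagen chains in each of the 6 tumors, split by class, and the black bars give the exact 95% interval of the total. The 3 IP+LC tumors stand at 0.295% to 0.306% and the 3 LC tumors at 0.198% to 0.224%, and the fibrillar part accounts for 0.0820 of the 0.0917 percentage points between the group means.

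A few chains carried most of these molecules. Col3a1 was the highest collagen chain in all 6 tumors, and Col3a1, Col1a2, Col4a1, Col1a1 and Col4a2 together took 63.3%, 63.1% and 55.6% of the collagen UMIs in the LC tumors and 73.3%, 72.0% and 70.9% in the IP+LC tumors. The tumors held UMIs of 27 to 40 of the 44 chains.
Of the 44 chains, 24 had enough UMIs for the edgeR quasi-likelihood test of IP+LC against LC. At a Benjamini-Hochberg adjusted p below 0.1 over all 11240 tested genes, 6 chains rose and 7 fell, where 16.8% of all tested genes were called higher and 19.6% lower. In either direction, 13 of the 24 chains and 36.4% of all tested genes were called. By class, the fibrillar chains had 4 higher and 0 lower of 7 tested, the basement membrane chains 0 and 2 of 5, the FACIT chains 0 and 1 of 3, the type VI chains 0 and 2 of 3 and the other chains 2 and 2 of 6. The groups did not overlap for 9 chains that were higher and 6 that were lower in IP+LC, where 21.6% and 21.5% of all tested genes behaved so. Without LC replicate 1, the counts were 11 higher and 9 lower of 25 tested chains, and the background was 28.3% and 28.7% of 11748 genes. The lower ones included Col4a6, which passed the filter in that fit only through LC libraries.

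**Figure D2:**
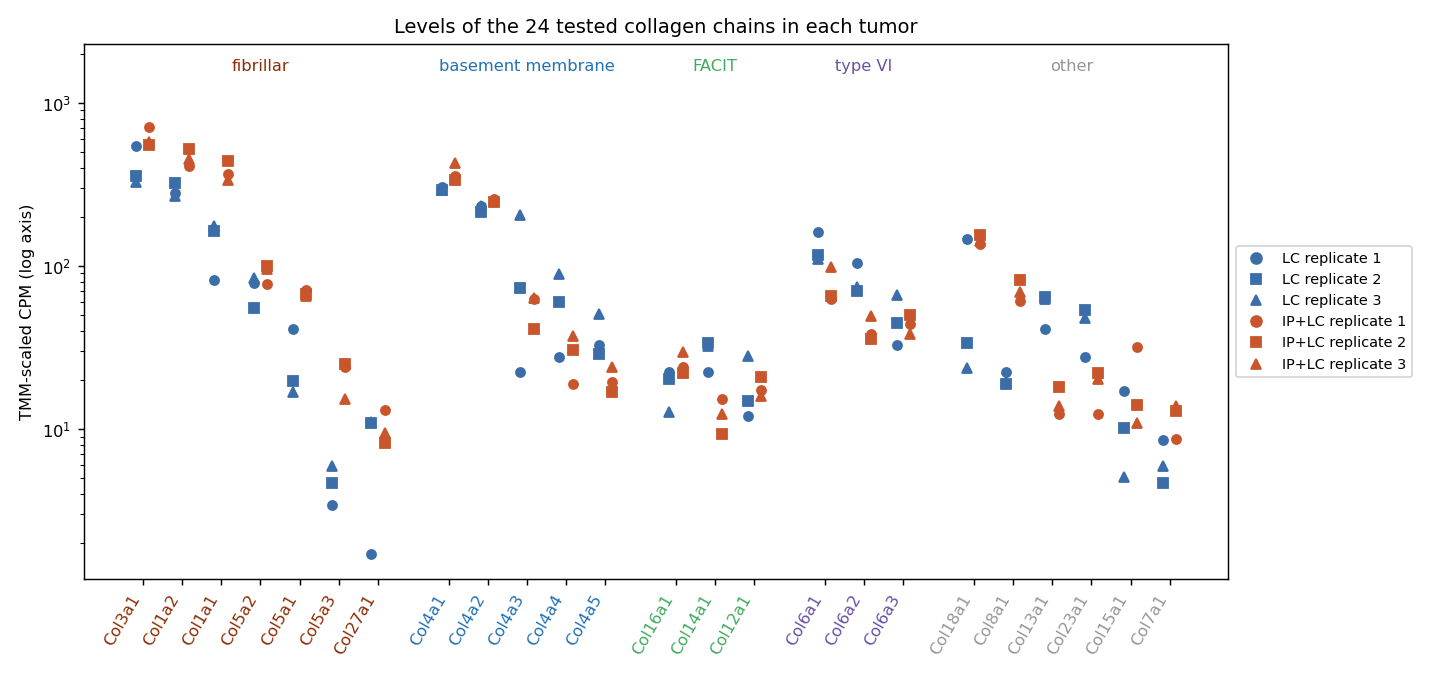
Each point is the TMM-scaled CPM (log axis) of 1 chain in 1 tumor, for the 24 tested chains ordered by class and by total UMIs, with LC in blue and IP+LC in orange and a marker shape per replicate. Col3a1 is the highest chain in every tumor, at 329.6 to 712 CPM, and the orange points lie above the blue ones for Col1a1, Col5a1, Col5a3 and Col8a1 and below them for Col13a1, Col14a1 and Col23a1.

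Fibrillar chains were the only class with rises and no falls among the called chains: Col1a1, Col1a2, Col5a1 and Col5a3 rose, and Col3a1 lay just short of the limit. Over the 7 tested chains the median log2 fold change was 0.67, against 0.02 over all tested genes, and 0.86 without LC replicate 1. Col1a1 (ENSMUSG00000001506, chr11:94936224-94953042, plus strand), a chain of type I collagen and the one the study followed as a gene of fibrosis, measured 82.7, 165 and 176 CPM in the LC tumors and 366, 440.1 and 336 CPM in the IP+LC tumors. The lowest IP+LC tumor stood above the highest LC tumor, and LC replicate 1 was the lowest of all. It rose 2.67-fold (edgeR log2 fold change 1.42 ± 0.29 SE, adjusted p = 0.00844), and 2.26-fold without LC replicate 1. Its partner in the type I trimer, Col1a2 (ENSMUSG00000029661, chr6:4504814-4541544, plus strand), was at 281, 324 and 268 CPM in the LC tumors and 412, 521 and 453 CPM in the IP+LC tumors. The groups were again apart, but the increase was smaller, 1.59-fold (edgeR log2 fold change 0.67 ± 0.20 SE, adjusted p = 0.0355). Without LC replicate 3 or IP+LC replicate 2 the call on Col1a2 was lost, with adjusted p values of 0.111 and 0.142 by the same edgeR test.
Col3a1 (ENSMUSG00000026043, chr1:45311538-45349706, plus strand), the single chain of type III collagen, is laid down together with type I in young scar. Its levels were 544, 356 and 329.6 CPM in the LC tumors and 712, 556 and 580.2 CPM in the IP+LC tumors. Every IP+LC tumor was above every LC tumor, but the difference was not called (edgeR log2 fold change 0.59 ± 0.25 SE, adjusted p = 0.106). Without LC replicate 1, the highest of the LC tumors, the same test gave a log2 fold change of 0.86 ± 0.15 (SE) and an adjusted p of 0.000213.
The chains of type V collagen, which copolymerizes with type I and limits the width of its fibrils, differed among themselves. Col5a1 (ENSMUSG00000026837, chr2:27886425-28039514, plus strand) stood at 41.3, 19.6 and 16.9 CPM in the LC tumors and 71.8, 67.7 and 65.4 CPM in the IP+LC tumors and rose 2.83-fold (edgeR log2 fold change 1.5 ± 0.31 SE, adjusted p = 0.00851). The LC tumors did not reach the IP+LC range, and LC replicate 1 was the highest of them. Without it, the rise was 3.74-fold. Col5a3 (ENSMUSG00000004098, chr9:20770050-20815067, minus strand), the third and rarest chain of this type, showed 3.44, 4.70 and 5.93 CPM in the LC tumors and 23.9, 25.1 and 15.2 CPM in the IP+LC tumors. With 2, 6 and 7 UMIs in the LC libraries and 33, 43 and 21 in the IP+LC libraries, it had the largest fold change of the tested chains, 4.32-fold (edgeR log2 fold change 2.11 ± 0.37 SE, adjusted p = 0.00463). Its count in LC replicate 1 is below the detection limit of 3 UMIs, and it passed the filter through the IP+LC libraries. With counts thinned to the smallest library its log2 fold change was 2.78 ± 0.50 (SE). Col5a2, the partner of Col5a1, was at 55.6 to 84.7 CPM in the LC and 77.6 to 100.4 CPM in the IP+LC tumors, which overlapped (edgeR log2 fold change 0.33 ± 0.23 SE, adjusted p = 0.321). It passed the limit narrowly without LC replicate 1 (log2 fold change 0.40 ± 0.19 SE, edgeR adjusted p = 0.0960). Col27a1, a fibrillar chain of cartilage and other tissues, had 73 UMIs in all and a log2 fold change of 0.18 ± 0.46 (SE). The fibrillar chains of cartilage were too rare for a test: Col2a1 had 3 UMIs over the 6 libraries, Col11a2 had 8 and Col11a1 had 44.

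**Figure D3:**
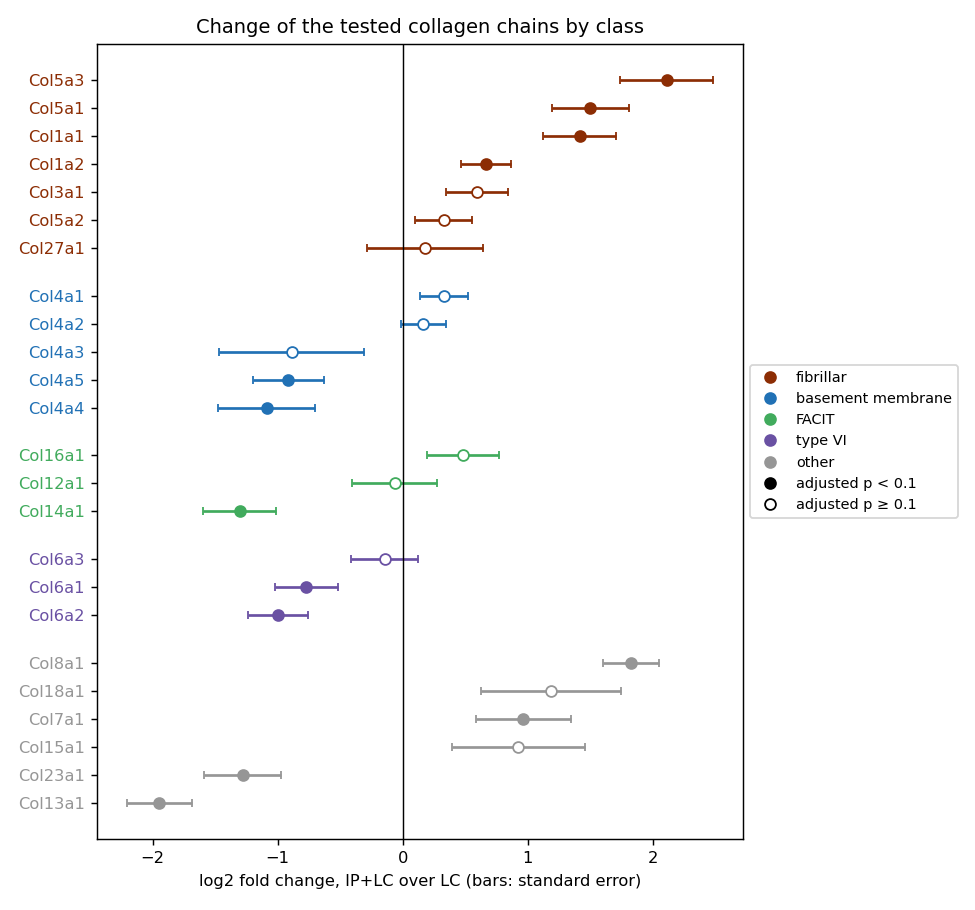
Points give the edgeR log2 fold change of IP+LC over LC for the 24 tested chains, bars the standard error, and filled points an adjusted p below 0.1. Fibrillar chains lie at 0.18 to 2.11, type VI chains at -1.0 to -0.14, and basement membrane and other chains on both sides of 0.

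The balance between chains that share a trimer was compared as the ratio of their UMIs in each tumor. There were 0.294, 0.508 and 0.658 UMIs of Col1a1 per UMI of Col1a2 in the LC tumors and 0.889, 0.844 and 0.742 in the IP+LC tumors, a difference of 0.83 on the log2 scale. The ratio of Col5a1 to Col5a2 was 0.522, 0.352 and 0.2 in the LC and 0.925, 0.674 and 0.682 in the IP+LC tumors, a difference of 1.18 on the log2 scale. Neither ratio overlapped between the groups, and each gave p = 0.1 in a two-sided exact permutation test (adjusted p = 0.2 over 5 ratios), which is the smallest p that 3 against 3 tumors allow. The other 3 ratios overlapped: Col4a1 to Col4a2 (1.26 to 1.37 in LC, 1.36 to 1.69 in IP+LC), Col6a1 to Col6a2 (1.48 to 1.67 and 1.64 to 1.99) and Col6a3 to Col6a1 (0.202 to 0.6 and 0.393 to 0.768), each with p = 0.2 in the same exact test. Levels of RNA were measured here and not those of the protein.

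**Figure D4:**
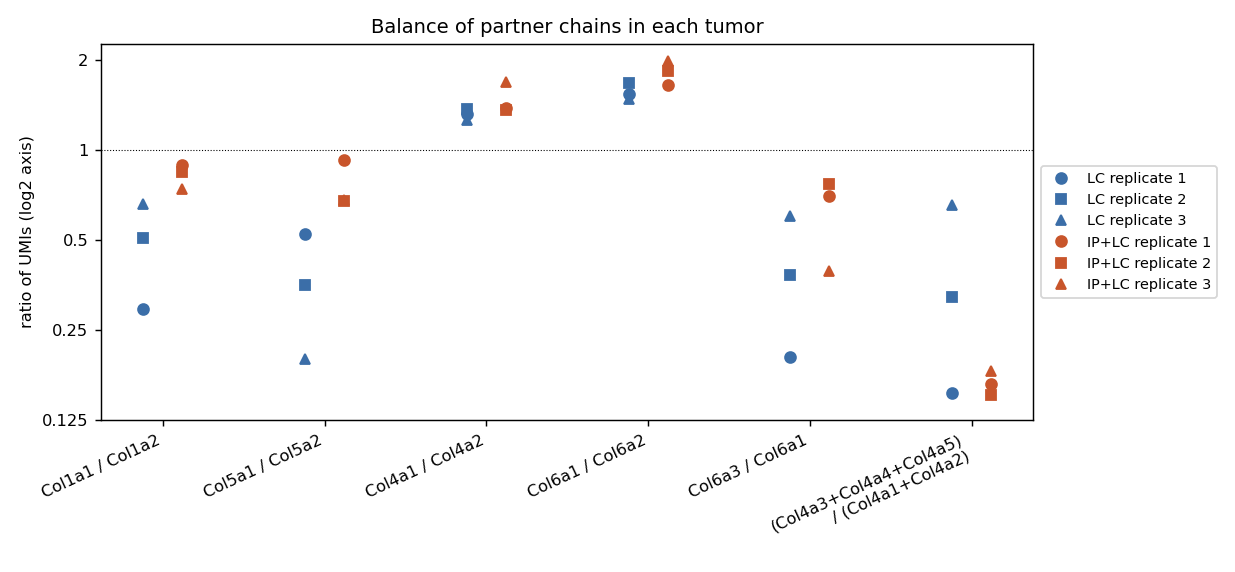
Each point is the ratio of UMIs between partner chains in 1 tumor (log2 axis), LC in blue and IP+LC in orange, with the dotted line at equal numbers. Col1a1 to Col1a2 and Col5a1 to Col5a2 lie higher in all 3 IP+LC tumors than in the LC tumors, while the ratio of Col4a3, Col4a4 and Col4a5 to Col4a1 and Col4a2 spreads from 0.153 to 0.654 in LC and stays at 0.152 to 0.182 in IP+LC.

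Among type IV chains, the called changes were 2 falls. Col4a1 and Col4a2, which build the basement membrane found in nearly every tissue, were abundant and were not called, while Col4a4 and Col4a5, which with Col4a3 build the trimer of the kidney filter and of alveolar basement membrane, fell. Col4a3 itself was not called, and no test compared the trimers. Over the 5 tested chains the median log2 fold change was -0.89. Over the same 5 chains it was -0.97 without LC replicate 1, where Col4a5 is the middle chain, and 0.09 without LC replicate 3, where Col4a3 is. With Col4a6, which passed the filter only without LC replicate 1 and through LC libraries, it was -1.14 over 6 chains. The genes lie in head-to-head pairs in GENCODE M21: Col4a1 (ENSMUSG00000031502, chr8:11198423-11312826, minus strand) and Col4a2 (ENSMUSG00000031503, chr8:11312805-11449287, plus strand) overlap by 22 bases at their starts, and Col4a4 (ENSMUSG00000067158, chr1:82448423-82586849, minus strand) and Col4a3 (ENSMUSG00000079465, chr1:82586921-82722059, plus strand) have 71 bases between them.
Col4a1 was at 307, 292 and 293 CPM in the LC tumors and 357, 335 and 431 CPM in the IP+LC tumors, and all IP+LC tumors lay above the LC tumors by a small margin (edgeR log2 fold change 0.33 ± 0.19 SE, adjusted p = 0.233). Col4a2 measured 232, 213 and 233 CPM in the LC tumors and 259, 246 and 256 CPM in the IP+LC tumors, with the same order of the groups (edgeR log2 fold change 0.17 ± 0.18 SE, adjusted p = 0.529). Without LC replicate 1, Col4a1 passed the limit with an adjusted p of 0.0440 by edgeR and Col4a2 did not.
Col4a3 ran from 22.4 CPM in LC replicate 1 over 73.6 in replicate 2 to 204 CPM in replicate 3, and the IP+LC tumors, at 63.1, 40.9 and 63.9 CPM, fell within that range. The difference was not called (edgeR log2 fold change -0.89 ± 0.58 SE, adjusted p = 0.289), it was called as lower without LC replicate 1 (adjusted p = 0.00269) and its sign turned without LC replicate 3 (log2 fold change 0.09), all by edgeR. Of the last 1000 exonic bases of Col4a3, 28.9% are also covered by the antisense gene C430014B12Rik, which had at most 12 UMIs in a library, and the use of the strand in counting is not given in the sources used here. Col4a4 showed 27.6, 60.3 and 89.0 CPM in the LC tumors and 18.9, 30.4 and 37.0 CPM in the IP+LC tumors, and LC replicate 1 lay within the IP+LC range. It fell 2.12-fold (edgeR log2 fold change -1.09 ± 0.39 SE, adjusted p = 0.0675), a call that 6 of 15 alternative fits at the limit of 0.1 did not keep, among them leaving out any single tumor other than LC replicate 1. Col4a5 (ENSMUSG00000031274, chrX:141475385-141689234, plus strand), at 32.7, 29.0 and 50.8 CPM in the LC tumors and 19.6, 16.9 and 23.96 CPM in the IP+LC tumors, did not overlap between the groups and fell 1.89-fold (edgeR log2 fold change -0.92 ± 0.28 SE, adjusted p = 0.0415), a call lost with counts thinned to the smallest library and without LC replicate 3, IP+LC replicate 1 or IP+LC replicate 2 (adjusted p of 0.132 to 0.174 by edgeR). Col4a6 (ENSMUSG00000031273, chrX:141165403-141474076, minus strand), its head-to-head neighbour on the X chromosome, had 4, 16 and 12 UMIs in the LC and 2, 4 and 6 in the IP+LC libraries, too few for the test with all 6 libraries. It entered the test only without LC replicate 1, and only through LC replicates 2 and 3, where it was highest. Its 4.10-fold lower level in IP+LC in that fit (edgeR log2 fold change -2.04 ± 0.49 SE) is therefore not counted as support for a fall.
The summed UMIs of Col4a3, Col4a4 and Col4a5 per UMI of Col4a1 and Col4a2, a ratio chosen after the values were seen and not tested, were 0.153, 0.322 and 0.654 in the LC tumors and 0.165, 0.152 and 0.182 in the IP+LC tumors. LC replicate 1 stood with the IP+LC tumors in this ratio. LC replicate 3 was also the highest in the markers of type 1 alveolar cells, which lie on that membrane, with summed levels of 3527, 2665 and 5512 CPM in LC replicates 1, 2 and 3 and 1193 to 1694 CPM in the IP+LC tumors, and 6 of their 8 tested genes fell, against 19.6% of all tested genes. Their part in the result was not tested.

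Of the 3 tested type VI chains, Col6a1 and Col6a2 fell and Col6a3 did not pass the test. The median log2 fold change was -0.77, and -0.59 without LC replicate 1. Col6a1 (ENSMUSG00000001119, chr10:76708792-76726168, minus strand), a core chain of the beaded filaments of type VI, stood at 162, 118 and 110.2 CPM in the LC tumors and 63.1, 65.4 and 98.0 CPM in the IP+LC tumors. It fell 1.71-fold (edgeR log2 fold change -0.77 ± 0.25 SE, adjusted p = 0.04999), and the call was lost when libraries were scaled by their size alone and without LC replicate 2, IP+LC replicate 1 or IP+LC replicate 2 (adjusted p of 0.102 to 0.209 by edgeR). Col6a2 (ENSMUSG00000020241, chr10:76595762-76623630, minus strand), its partner and neighbour on chromosome 10, measured 105, 70.5 and 74.6 CPM in the LC tumors and 38.4, 35.6 and 49.4 CPM in the IP+LC tumors. The IP+LC tumors were all below the LC tumors, and the level fell 2.0-fold (edgeR log2 fold change -1.0 ± 0.24 SE, adjusted p = 0.0157). The call was kept in every alternative, though only just in the weakest of them. Col6a3, the largest chain of the filament, was at 32.7 to 66.1 CPM in the LC and at 38.5 to 50.2 CPM in the IP+LC tumors (edgeR log2 fold change -0.14 ± 0.27 SE, adjusted p = 0.727). Col6a4, Col6a5 and Col6a6, which can stand in for Col6a3, had 4, 4 and 1 UMIs over all libraries.
Among FACIT chains, Col14a1 fell and the other tested members were not called. Col14a1 (ENSMUSG00000022371, chr15:55307750-55520803, plus strand), which binds to type I fibrils, was at 22.4, 33.7 and 32.2 CPM in the LC tumors and 15.2, 9.34 and 12.3 CPM in the IP+LC tumors, with no overlap, and fell 2.47-fold (edgeR log2 fold change -1.30 ± 0.29 SE, adjusted p = 0.0116). Col16a1 was at 12.7 to 22.4 CPM in the LC and 22.2 to 29.8 CPM in the IP+LC tumors (edgeR log2 fold change 0.48 ± 0.29 SE, adjusted p = 0.245). Col12a1, the close relative of Col14a1 on fibrils, measured 12.1 to 28.0 CPM and 16.0 to 21.01 CPM (edgeR log2 fold change -0.06 ± 0.34 SE, adjusted p = 0.915). The difference between the changes of Col14a1 and Col12a1 was not tested. The 6 untested FACIT chains had 1 to 28 UMIs each, led by Col19a1 with 0, 8 and 13 in the LC and 2, 5 and 0 in the IP+LC libraries.

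The other types moved in both directions, with Col8a1 and Col7a1 higher and Col13a1 and Col23a1 lower. Col8a1 (ENSMUSG00000068196, chr16:57624258-57754737, minus strand), a short-chain collagen of vessel walls and of remodelling tissue, showed 22.4, 18.8 and 19.5 CPM in the LC tumors and 60.9, 81.7 and 69.7 CPM in the IP+LC tumors. The 3 LC tumors lay close together and far below every IP+LC tumor, and the rise of 3.54-fold had the smallest p of all tested chains (edgeR log2 fold change 1.83 ± 0.22 SE, adjusted p = 0.00124). Its partner Col8a2 had 2, 8 and 6 UMIs in the LC and 3, 1 and 3 in the IP+LC libraries and was not tested. Col7a1 (ENSMUSG00000025650, chr9:108953586-108984875, plus strand), the chain of the anchoring fibrils under epithelium, was at 8.61, 4.70 and 5.93 CPM in the LC tumors and 8.70, 12.8 and 13.8 CPM in the IP+LC tumors. The groups were apart by little, between 8.61 CPM in LC replicate 1 and 8.70 in IP+LC replicate 1, and the call (edgeR log2 fold change 0.97 ± 0.38 SE, adjusted p = 0.0896) was lost in 10 of 13 alternative fits at the limit of 0.1.
Both chains that fell are collagens that span the cell membrane. Col13a1 (ENSMUSG00000058806, chr10:61838236-61979108, minus strand), found at cell junctions, measured 41.3, 65.0 and 62.7 CPM in the LC tumors and 12.3, 18.1 and 13.8 CPM in the IP+LC tumors, and the LC range began far above the IP+LC range. It had the largest decrease of the tested chains, 3.86-fold (edgeR log2 fold change -1.95 ± 0.26 SE, adjusted p = 0.00151). Col23a1 (ENSMUSG00000063564, chr11:51289920-51583918, plus strand) was at 27.6, 54.1 and 48.3 CPM in the LC tumors and 12.3, 22.2 and 20.3 CPM in the IP+LC tumors, without overlap, and fell 2.43-fold (edgeR log2 fold change -1.28 ± 0.31 SE, adjusted p = 0.0165). Col17a1, the membrane collagen of hemidesmosomes, and Col25a1, another member of this kind, had 19 and 17 UMIs in all.
Col18a1 (ENSMUSG00000001435, chr10:77052178-77166548, minus strand), a basement membrane proteoglycan from which endostatin is cut, had the most UMIs of this class. It stood at 146, 33.7 and 23.7 CPM in the LC tumors and 136, 154 and 142 CPM in the IP+LC tumors. Replicates 2 and 3 of the LC group were low, and replicate 1 was within the range of the IP+LC tumors, so the difference was not called (edgeR log2 fold change 1.19 ± 0.56 SE, adjusted p = 0.150). Without LC replicate 1 the same test gave a log2 fold change of 2.33 ± 0.19 (SE) and an adjusted p of 2.94e-07, the largest increase of any chain in that comparison. LC replicate 1 was also near the IP+LC tumors in macrophage markers, with sums of 2416 CPM in LC replicate 1, 624 to 851 in the other LC tumors and 2302 to 2915 in the IP+LC tumors, and their part in it was not tested. Col15a1, the relative of Col18a1, was at 5.08 to 17.2 CPM in the LC and 10.9 to 31.9 CPM in the IP+LC tumors (edgeR log2 fold change 0.93 ± 0.53 SE, adjusted p = 0.231). It too was called higher without LC replicate 1 (log2 fold change 1.28 ± 0.50 SE, edgeR adjusted p = 0.0456). The 6 untested chains of the class had 3 to 23 UMIs each.

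Of 19 tested genes that fold and modify collagen in the endoplasmic reticulum, 5 rose and 1 fell, with a median log2 fold change of 0.48, where 16.8% and 19.6% of all tested genes were called higher and lower. Without LC replicate 1 the counts were 10 and 2 of 20, against 28.3% and 28.7% of all tested genes. Serpinh1 (HSP47), the chaperone that binds folded procollagen, was at 285 to 546 CPM in the LC and at 791 to 964 CPM in the IP+LC tumors, a rise of 1.09 ± 0.26 on the log2 scale (SE, edgeR adjusted p = 0.0162). Hsp90b1 and Pdia3, general chaperones of the secretory pathway that are not specific to collagen, rose by 1.25 and 0.90 on the log2 scale. Hsp90b1 was at 672 to 809 CPM in the LC and 1563 to 1991 CPM in the IP+LC tumors. Mia3 (TANGO1), which loads procollagen for export, was at 70.6 to 94.9 and 106 to 144 CPM and rose by 0.57 on the log2 scale. P3h4, a partner of prolyl and lysyl hydroxylases, fell by 0.72 on the log2 scale. The prolyl 4-hydroxylase genes P4ha1, P4ha2 and P4hb did not pass the test with all tumors, and P4hb passed it without LC replicate 1.
Of 5 tested genes for trimming of the propeptides, 1 rose and 1 fell, shares near the 16.8% and 19.6% of all tested genes. Adamts14, an N-propeptidase, was at 1.69 to 6.89 CPM in the LC and 13.8 to 18.1 CPM in the IP+LC tumors (edgeR log2 fold change 2.10 ± 0.43 SE, adjusted p = 0.00863). This rests on 4, 5 and 2 UMIs in the LC and 25, 28 and 19 in the IP+LC libraries, so the LC values are near or below the detection limit of 3 UMIs. Pcolce2, an enhancer of C-propeptide removal, was at 143 to 427 and 59.0 to 90.6 CPM and fell by 2.07 on the log2 scale (edgeR adjusted p = 0.00567). Its relative Pcolce, at 154 to 386 and 378 to 434 CPM, was not called with all tumors and was 2.26-fold higher without LC replicate 1 (edgeR adjusted p = 2.48e-05). Of 4 tested lysyl oxidase genes, which start crosslinking, Loxl3 rose (log2 fold change 1.24) and Loxl1 fell (-0.57), while Lox, at 34.7 to 50.1 and 39.9 to 45.7 CPM, was not called.
Of 8 tested collagen receptors and uptake genes, 2 rose and 3 fell, against 16.8% and 19.6% of all tested genes. Lair1, an inhibitory collagen receptor of immune cells, was at 16.5 to 28.0 CPM in the LC and 72.5 to 115 CPM in the IP+LC tumors, a rise of 2.13 ± 0.28 on the log2 scale (SE, edgeR adjusted p = 0.00149). Ddr2, a receptor kinase for fibrillar collagen, was at 39.0 to 51.7 and 81.3 to 88.7 CPM and rose by 0.91 on that scale. Itga1, the integrin chain that prefers type IV collagen, was at 91.3, 271 and 274 CPM in the LC and 81.1 to 106 CPM in the IP+LC tumors and fell by 1.18. Adgrg1, a receptor for type III collagen, and Mrc2 (Endo180), which takes up collagen for breakdown, fell by 0.86 and 0.71. Itgb1, the shared beta chain, was at 392 to 438 and 428 to 432 CPM and was not called.

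Most fibroblast markers fell, whereas 4 of the 7 tested fibrillar chains rose. The summed level of the 11 fibrillar chains was 1033, 940.1 and 920.3 CPM in the LC and 1681, 1723 and 1560 CPM in the IP+LC tumors. Of 14 tested fibroblast markers, 0 rose and 11 fell by edgeR (median log2 fold change -1.18, and 1 rose and 12 fell without LC replicate 1), where 16.8% of all tested genes were called higher and 19.6% lower (28.3% and 28.7% without LC replicate 1). Their sum went from 7079 to 7773 CPM in LC to 2750 to 3760 CPM in IP+LC. Among them, Mgp, a matrix protein and the most abundant, was at 2778 to 4023 and 1787 to 2757 CPM and missed the limit (it passed without LC replicate 1, with an edgeR adjusted p of 0.0272), and Inmt, a methyltransferase of resident lung fibroblasts, fell by 3.54 on the log2 scale. Thy1, a surface protein of fibroblasts that other cells share, was at 39.8 to 53.4 CPM in the LC and 55.2 to 75.9 CPM in the IP+LC tumors and was not called, but it was the 1 marker called higher without LC replicate 1 (edgeR adjusted p = 0.0328).
Of 7 tested markers of activated fibroblasts, 3 rose (Fn1, Tnc and Sfrp1) and 2 fell (Acta2 and Postn), against 16.8% and 19.6% of all tested genes. Their sums overlapped, at 958 to 1120 CPM in the LC and 972 to 1128 CPM in the IP+LC tumors. Acta2, which fell, is counted in these sums and also in the smooth muscle and pericyte list, so the overlap depends on it. Fn1, the gene of fibronectin, was at 187 to 449 and 575 to 685 CPM. Acta2, the smooth muscle actin of myofibroblasts and of smooth muscle, was at 360 to 572 and 88.1 to 131 CPM and fell by 2.03 on the log2 scale, while 9 of 11 smooth muscle and pericyte markers fell, Des among them, against the same 19.6%. Cthrc1 and Lrrc15, which mark collagen-producing fibroblasts of scar and of tumor stroma, had 38 and 5 UMIs over the 6 libraries.
The other marker lists were lower in IP+LC, apart from those of macrophages, proliferation and cartilage. All 12 endothelial markers fell, with sums of 2156 to 3734 CPM in LC and 604 to 827 CPM in IP+LC, as did 8 of 9 type 2 alveolar, all 5 tested airway and all 5 tested mesothelial markers, where 19.6% of all tested genes fell. By edgeR, 3 of 8 macrophage markers and 7 of 8 proliferation markers rose, and 7 and 8 of them did without LC replicate 1, against 16.8% and 28.3% of all tested genes. For proliferation, the sum was 560 CPM in LC replicate 1, 127 and 146 in the other LC tumors and 1114 to 1228 in the IP+LC tumors. Of the cartilage list only Sox9, a transcription factor that other cells share, could be tested, and it rose by 1.95 on the log2 scale, and the defining cartilage genes Acan, Comp and Matn1 had 2 UMIs each over all libraries. No marker was at 0 in all 6 libraries, and the part of these cell types in the collagen results was not tested.

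**Figure D5:**
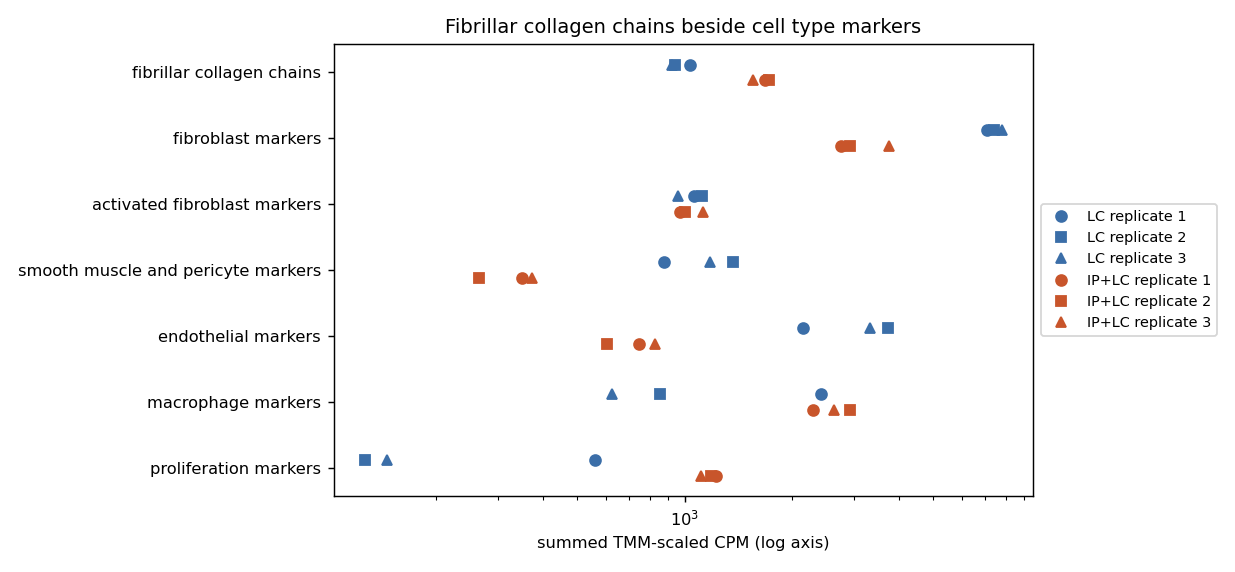
Each point is the summed TMM-scaled CPM (log axis) of a gene list in 1 tumor, LC in blue and IP+LC in orange. The fibrillar collagen sum is higher in all 3 IP+LC tumors (1560 to 1723 against 920.3 to 1033 CPM), the fibroblast, smooth muscle and endothelial sums are lower, and LC replicate 1 lies near the IP+LC tumors for macrophage markers.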

How the data were processed

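The 6 tumors, 3 LC and 3 IP+LC, were sequenced by the bulk RNA barcoding method. The authors extracted UMIs with UMI-tools 1.1.1, trimmed with Trim Galore 0.6.7, aligned to GRCm38 with HISAT2 2.2.1 and assigned reads to genes with featureCounts 2.0.1. The deposited values are raw UMI counts for 31130 genes in each of 6 tables, 1 for each tumor. Which annotation release was used, and whether reads were counted by strand, is not given in the sources used here.
From these counts, edgeR 4.0.16 in R 4.3.3 kept 11240 genes by filterByExpr (minimum count 10, minimum total 15), scaled the libraries by TMM and compared IP+LC with LC by the quasi-likelihood test without a block, with Benjamini-Hochberg adjustment over all tested genes and a limit of 0.1, the one the paper states. SE is the log2 fold change divided by the square root of F. CPM are TMM-scaled over the UMIs of tested genes. On this scale, 3 UMIs, the detection limit, were worth 5.17 CPM in LC replicate 1 and 1.75 to 2.54 CPM in the others. Ratios of chains were tested by two-sided exact permutation over 6 tumors.
The labels name separate samples of each model and do not say more on their origin, so p-values measure the spread between these samples. Same-numbered replicates were checked for pairing by the correlation of their deviations from the group means, which was 0.03, -0.12 and 0.11, so no pairing was used. No 2 libraries of the same group agreed within sampling noise (chi-square per degree of freedom 2.65 to 17.7).
Positions came from GENCODE M21 (GRCm38) and the bases before gene starts from RefSeq. No chain had more than 7.68% of its transcript in matches of at least 81 bases and 95% identity to another gene (blastn 2.17.0+). The members, classes, gene lists and tests were chosen with earlier results of these data known, and the rule for chains to describe took in each class every called chain, the 2 with the most UMIs and Col1a1. Genes named beside these were the called genes of each list (at most 4 per direction) and the 2 most abundant markers of the lists whose genes are named, and Thy1, Acan, Comp, Matn1, Tnc, Sfrp1, Postn, Cthrc1, Lrrc15 and the uncalled list genes were named after their values were seen. Alternatives were DESeq2 size factors, upper quartile and library size scaling, no filter, at least 10 UMIs in every library, DESeq2 1.42.0, limma 3.58.1 voom, a replicate block, a limit of 0.05, counts thinned to 592733 UMIs per library, and each tumor left out.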

Additional observations from a re-analysis of the deposited data

How the results depend on the processing

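Of the 13 called chains, 8 stayed past the limit in every alternative that tested them (Col1a1, Col5a1, Col5a3, Col14a1, Col6a2, Col8a1, Col13a1 and Col23a1, of which Col5a3 was not tested with at least 10 UMIs in every library) and 0 changed sign. Col7a1, Col4a4, Col4a5, Col6a1 and Col1a2 lost the call in 10, 6, 4, 4 and 2 alternative fits at the limit of 0.1, and Col7a1 and Col4a4 also at a limit of 0.05. Of the 11 uncalled chains, 6 passed the limit in some alternative. Leaving out 1 tumor gave 4 to 11 chains higher and 4 to 9 lower, the 11 without LC replicate 1 and the 4 lower without IP+LC replicate 2. Over all genes it gave 897 to 3324 higher and 1368 to 3367 lower, against 1885 and 2203, the most without LC replicate 1 and the fewest without IP+LC replicate 2, with 1016 higher without LC replicate 2 and 1088 without IP+LC replicate 1. Thinning gave 5 chains higher and 5 lower, and 1014 and 1338 of all genes. No alternative with all 6 tumors moved the counts of chains by over 1.5 times. Scaling by library size alone shifted the median of all genes by 0.16 (log2) and gave 58.3% of calls as higher, against 46.1%. A replicate block kept 6 chains higher and 7 lower, and it called Col18a1 and not Col7a1. Signs turned only among uncalled chains. Col12a1 (-0.06), also the median of the 3 FACIT chains, was at 0.106 with library size scaling, 0.0558 with no filter, 0.0096 with the replicate block and -0.24 to 0.38 with 1 tumor left out (0.38 without LC replicate 3, 0.0495 without IP+LC replicate 3). The FACIT median was -0.42 with at least 10 UMIs, -0.30 after thinning and -0.24 to 0.24 with 1 tumor left out. Col6a3 was at 0.0254 with library size scaling and -0.295 to 0.146 with 1 tumor left out, Col4a3 at -1.30 to 0.0924 and Col27a1 at -0.109 to 0.421. The median of the other types, 0.95, was 1.1 with library size scaling, -0.0297 with at least 10 UMIs, 0.65 after thinning and 0.64 to 1.22 with 1 tumor left out, and that of the 5 basement membrane chains ran from -1.09 to 0.0924 in those (-1.14 without LC replicate 1 if Col4a6, untested with all tumors, is counted in). The cause was not tested, except that filters and thinning left fewer chains in the class medians. Depth limits the 20 untested chains, none of which had more than 44 UMIs.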

Other observations

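The following values were chosen after the data were seen and were not tested. Some rare chains had their UMIs mainly in LC replicate 3: 30 of the 44 UMIs of Col11a1, a fibrillar chain of cartilage, and 12 of the 18 UMIs of Col28a1, a beaded-filament type of nerve and skin. The ratio of Col3a1 to Col1a1, the 2 leading chains of young and mature scar, was 6.58, 2.16 and 1.87 in LC replicates 1, 2 and 3 and 1.94, 1.26 and 1.73 in the IP+LC tumors. LC replicate 1 lay far from the other 5, LC replicate 2 lay somewhat above the IP+LC range and LC replicate 3 lay within it.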
